A study of Homo sapiens with 2 samples.

Results

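Loci of the miR-99/100 and miR-125 families were followed in MCF10A cells exposed for 24 h to 2 µM withaferin A and in untreated MCF10A cells. MCF10A is an immortalised line of human mammary epithelium that does not form tumours. Withaferin A is a steroid-like lactone of the medicinal plant Withania somnifera. Small RNA was sequenced in 3 libraries of each group. The loci were chosen by name: miR-99a, miR-99b, miR-100, miR-125a or miR-125b, with any arm or copy suffix, at any of the 947 loci of the count table. The rule found 5 loci with 4 names, which the table gives as hsa-miR-100-5p, hsa-miR-99a-5p, hsa-miR-125a-5p and hsa-miR-125b-5p, the last at a copy on chromosome 11 and a copy on chromosome 21. miR-99b was not analysed here. The extraction protocol in the labels lists 2 library kits and assigns NEBNext to the withaferin A libraries and QIAseq to the untreated ones, if its order is taken as written. Treatment and kit then cannot be told apart. Separate cultures are not stated for the replicates, and the p-values describe the spread between these libraries alone, which may be technical.

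MicroRNAs (miRNAs) are cut from hairpin precursors and repress messenger RNAs that match their seed, bases 2 to 8 of the mature strand. In the human genome these families are made from clusters in which a miR-99/100 gene and a miR-125 gene flank a let-7 gene. miR-99a and miR-100 are known as repressors of MTOR, a kinase that controls growth. miR-125a and miR-125b are the human relatives of lin-4, the miRNA that times larval development in Caenorhabditis elegans, and are known to repress the growth factor receptors ERBB2 and ERBB3 in breast cancer cells. The let-7 miRNAs of the same clusters are known as repressors of RAS genes and HMGA2.

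The mature sequences are shown because miR-100-5p and the miR-125 members, which carry different seeds, had different counts after withaferin A. They come from RefSeq (build GRCh38.p14), where all 4 names had an entry, and capitals mark the seed.
miR-100-5p: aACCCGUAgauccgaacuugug
miR-99a-5p: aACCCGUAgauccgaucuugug
miR-125a-5p: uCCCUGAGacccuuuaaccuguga
miR-125b-5p: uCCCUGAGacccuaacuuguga
let-7a-5p: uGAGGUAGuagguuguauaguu
let-7e-5p: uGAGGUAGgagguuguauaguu
let-7c-5p: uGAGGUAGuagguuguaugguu
miR-100-5p and miR-99a-5p share a seed and differ at 1 base, A16U, counted from the 5′ end with the miR-100-5p base first. miR-125a-5p and miR-125b-5p share their first 13 bases and are 24 and 22 bases long. The let-7 partners on chromosomes 11 and 21 differ by A19G, with the let-7a-5p base first, and let-7e-5p differs from let-7a-5p by U9G. In RefSeq the seed ACCCGUA was held by 3 mature human miRNAs, of which 2 had a locus in the table, and the seed CCCUGAG by 3, of which 2 had a locus.

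The precursors are shown for the 3 genes whose counts the comparison turns on, with the mature 5p strand in capitals and the 3p arm following the loop.
MIR100: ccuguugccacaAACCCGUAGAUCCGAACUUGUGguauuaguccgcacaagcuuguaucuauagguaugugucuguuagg
MIR125A: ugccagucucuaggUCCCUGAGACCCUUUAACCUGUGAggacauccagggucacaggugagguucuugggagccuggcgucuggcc
MIR125B1: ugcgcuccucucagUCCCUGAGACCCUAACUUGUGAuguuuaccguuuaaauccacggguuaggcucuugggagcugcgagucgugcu
All 5 loci are named for the 5p arm. The sources used here do not say whether a locus name covers the named arm or the whole hairpin, so no difference between arms can be read from these counts.

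On chromosome 11 (GRCh38, GENCODE release 29) MIR100 lies at 122152229 to 122152308 and MIR125B1 at 122099757 to 122099844, both on the minus strand in introns of the non-coding host gene MIR100HG. In the direction of transcription the let-7a-2 gene starts 5715 bases after MIR100, and MIR125B1 starts 52464 bases after it. On chromosome 21 MIR99A lies at 16539089 to 16539169 and MIR125B2 at 16590237 to 16590325, both in introns of MIR99AHG, with the let-7c gene 739 bases after the start of MIR99A. On chromosome 19 MIR125A lies at 51693254 to 51693339, in an intron of the protein-coding gene SPACA6 and opposite an exon of the antisense RNA SPACA6P-AS, and it starts 468 bases after the let-7e gene. The table does not state whether strand was used in counting.

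Depth differed far more than any single locus. The withaferin A libraries held 340 to 430 counts and the untreated libraries 1855838 to 2615684. Whether the withaferin A totals hold all counted reads of those libraries cannot be told from the tables, and every withaferin A share is a share of the counts in them. In a withaferin A library 1 count is 0.233% to 0.294% of the total. Summed over the 3 libraries, withaferin A gave 1188 counts, and a locus with 0 of them could hold up to 0.253% of counts (3 counts, the floor). Limits and floors cover counting error only. Of 7 epithelial marker miRNAs 6 had a locus, and they summed to 28.8% to 37.2% of counts in withaferin A libraries and 6.93% to 7.78% in untreated libraries. Only miR-205-5p among the 6 had a count after withaferin A. Blood cell, stromal, and liver and muscle markers had 0 counts in withaferin A libraries and at most 0.0102% per list in any untreated library. All 5 loci passed the filter on low counts. Loci were tested in edgeR (quasi-likelihood F test, trimmed mean of M values (TMM) scaling) over 303 loci, and called where the Benjamini-Hochberg adjusted p was under 0.05.

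miR-100-5p was the dominant member in untreated cells and had 1 count after withaferin A. It had 0, 1 and 0 counts in the withaferin A libraries, against 88649, 110187 and 78471 counts in the untreated libraries. These were 0%, 0.233% and 0% of counts after withaferin A, against 3.45%, 4.21% and 4.23% in untreated cells. Every withaferin A library lay below every untreated library, and miR-100-5p ranked 4 of 947 loci by untreated share. At the untreated share 47.1 of the 1188 withaferin A counts would have been miR-100-5p. Its pooled share was 47.1-fold lower (exact 95% limits 8.47 to 1860). In edgeR miR-100-5p fell by 6.80 ± 0.77 on the log2 scale (SE, n = 3 libraries per group, adjusted p = 0.00188). The fitted change was −7.60 with relative log expression (RLE) factors, −5.56 with library totals and −5.61 without withaferin A replicate 3, and without withaferin A replicate 2 it had 0 counts left and no finite fold.

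miR-99a-5p, which carries the same seed, was the least abundant member. It had 0 counts in each withaferin A library, against 4962, 4719 and 4064 counts in the untreated libraries, 0.193%, 0.180% and 0.219% of their totals. Its untreated mean of 0.197% ± 0.0197 (SD, n = 3) was under the floor, and only 2.35 counts would have been found at that share. edgeR called the locus lower (adjusted p = 0.0263), but no fold can be given and a fall was not detectable at this depth. With library totals in place of TMM it was not called (edgeR adjusted p = 0.203).

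miR-125a-5p took a larger share of counts after withaferin A, and the change did not pass the test. It had 6, 5 and 3 counts in the withaferin A libraries, against 10519, 12827 and 6962 in the untreated libraries. As shares these were 1.44%, 1.16% and 0.882% after withaferin A and 0.409%, 0.490% and 0.375% in untreated cells. The groups did not overlap, with every withaferin A library higher. Its 14 counts, against 5.05 at the untreated share, gave a share ratio of 2.77 (exact 95% limits 1.52 to 4.63). In edgeR the log2 fold change was 0.36 ± 0.58 with TMM (SE, adjusted p = 0.792) and 1.47 ± 0.36 with library totals (adjusted p = 0.0551). It was −0.59 with RLE factors (edgeR adjusted p = 0.572), so its direction depended on the scaling.

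miR-125b-5p was spread unevenly over the withaferin A libraries. At the chromosome 11 copy it had 1, 2 and 6 counts after withaferin A, against 10227, 10009 and 7643 in untreated cells. At the chromosome 21 copy the withaferin A counts were again 1, 2 and 6, and the untreated counts were 9899, 9675 and 7611, lower by 0.419% to 3.34% than at the chromosome 11 copy. MIR125B1 and MIR125B2 give the same mature strand, so the copies share most reads and are not independent measurements. The chromosome 11 copy took 0.239%, 0.465% and 1.76% of counts after withaferin A, around an untreated range of 0.383% to 0.412%, and the groups overlapped. Its pooled share ratio was 1.91 (exact 95% limits 0.873 to 3.61), and at the chromosome 21 copy it was 1.95 (0.894 to 3.69). In edgeR the log2 fold change at the chromosome 11 copy was −0.36 ± 0.37 with TMM (SE, adjusted p = 0.792) and 0.95 ± 0.59 with library totals (adjusted p = 0.624). Without withaferin A replicate 3, which gave 6 of the 9 counts, the mean share of miR-125b-5p after withaferin A was 0.352%, against 0.823% with it.

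**Figure D1:**
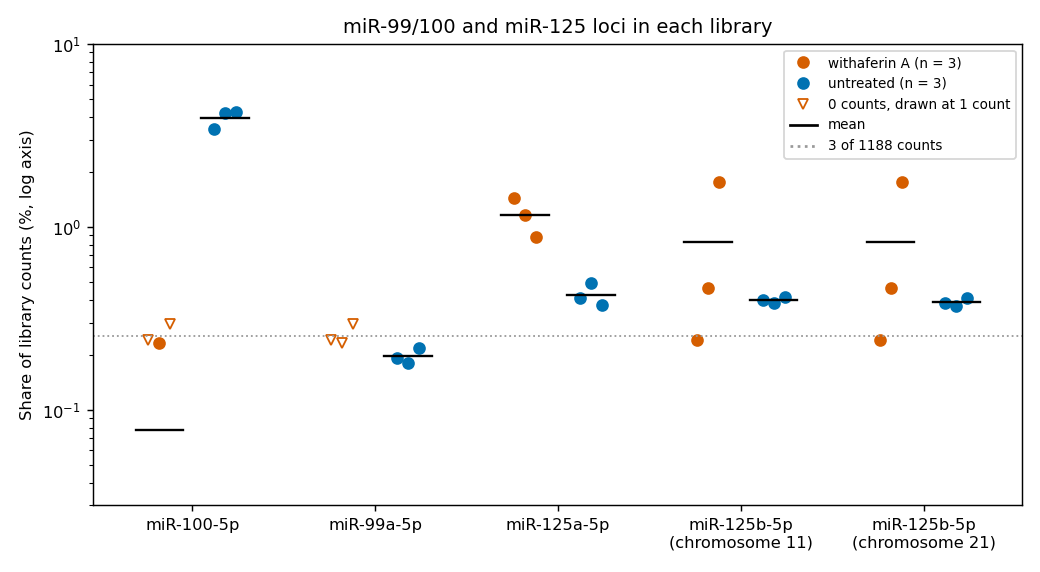
Share of each library's counts (percent, log axis) at the 5 loci, with withaferin A libraries left of untreated libraries, a bar at each group mean, and open triangles at the level of 1 count where a library had 0. miR-100-5p has no withaferin A library above 0.233%, miR-125a-5p has every withaferin A library above every untreated one, and miR-125b-5p spreads from 0.239% to 1.76% after withaferin A.

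In all, 2 of the 5 loci were called in edgeR with TMM, both lower and neither higher. Across the 303 loci tested, 16.8% were called lower and 0.66% higher. The call at miR-100-5p was shared by most abundant loci: of the 52 loci with an untreated mean above the floor, 80.8% were called lower, and 46.2% had 0 counts after withaferin A. Likewise the lack of overlap at miR-100-5p and miR-99a-5p, lower in every withaferin A library, was found at 91.1% of loci tested. Only 44 loci had any count after withaferin A, and a tested locus with 0 counts there is lower by this measure whatever its level. At miR-99a-5p, with 2.35 counts expected, the lack of overlap therefore says little. The lack of overlap at miR-125a-5p, in the higher direction, was found at 2.97%. Loci with 0 counts after withaferin A cannot show it, so this is not its share among loci as abundant as miR-125a-5p. With library totals 1 of the 5 loci was called, miR-100-5p, which was lower. In that fit 3.63% of loci were called lower and 1.98% higher.

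Above the floor 8 of 52 loci (15.4%) had a higher pooled share after withaferin A, and they took 84.0% of withaferin A counts and 15.9% of untreated counts. They were miR-125a-5p, miR-125b-5p at both copies, let-7a-5p at both copies, let-7c-5p, let-7e-5p and miR-205-5p. Apart from miR-205-5p and the chromosome 22 copy of let-7a-5p, which shares reads with that on chromosome 11, all are loci of the 3 clusters described above. The floor left out miR-16-5p, outside these clusters, at 0.240% and 0.242% of untreated counts on chromosomes 3 and 13. Each copy had 18 withaferin A counts, a mean share of 1.51% and 1.53%, so higher shares were not confined to the clusters. The median share ratio was 0.964 over the 4 names, with 1 copy of miR-125b-5p and with miR-99a-5p, which is under the floor, at 0. It was 0 over the 303 loci tested and 0.0474 over the 52 above the floor. The value of 0.964 falls between 0.0212 at miR-100-5p and 1.91 at miR-125b-5p. By share ratio the members lay on both sides of 1, and none lay near their median. No member was called higher under any setting, and the fitted direction at miR-125a-5p and miR-125b-5p changed with the scaling. With the 8 loci left out, the remaining counts were 5.26-fold lower as a share of all counts. Among those remaining counts miR-100-5p took 1 of 190 after withaferin A (0.526%, exact 95% limits 0.0133% to 2.90%) and 4.71% ± 0.520 in untreated cells (SD, n = 3). This was an 8.95-fold lower share (1.63 to 354). The 8 loci were singled out after their values were seen, so this is a description.

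Against miR-21-5p, the most abundant miRNA of the untreated cells, the counts were too few to separate the groups. miR-100-5p made up 1 of 30 counts of the pair after withaferin A (3.33%, exact 95% limits 0.0844% to 17.2%), against 10.4% to 13.5% in the untreated libraries.

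The let-7 partners of the members had higher shares after withaferin A in every library. let-7a-5p on chromosome 11 had 88, 82 and 62 counts after withaferin A, against 86550, 109575 and 45888 in untreated cells, a share ratio of 5.84 (exact 95% limits 5.18 to 6.55). let-7c-5p on chromosome 21 had 45, 29 and 23 counts after withaferin A, against 24233, 25496 and 12857 (share ratio 9.38, 7.67 to 11.3). let-7e-5p on chromosome 19 had 8, 7 and 4, against 8607, 8053 and 5445 (share ratio 5.13, 3.09 to 7.97). Of these 3, edgeR with TMM called only let-7c-5p higher (log2 fold change 2.39 ± 0.62, SE, adjusted p = 0.0311). That call was lost without withaferin A replicate 1 (log2 fold change 1.5, edgeR adjusted p = 0.0906) or 2 (2.51, adjusted p = 0.0631), with a replicate block (adjusted p = 0.0667) and against a fold of 2 (adjusted p = 0.0804). With library totals all 3 were called higher (edgeR adjusted p of 0.000344 to 0.00249).

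Ratios of counts inside a cluster do not depend on how a library is scaled. On chromosome 11 the ratio of miR-100-5p to let-7a-5p was 0, 0.0122 and 0 in the withaferin A libraries and 1.02, 1.01 and 1.71 in the untreated libraries. Summed, it was 0.00431 after withaferin A (exact 95% limits 0.000109 to 0.0243) and 1.15 in untreated cells. Some of the let-7a-5p counts come from the other let-7a genes, which give the same mature strand, so the ratio sets miR-100-5p against more than its own cluster in both groups.

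The ratio of miR-100-5p to miR-125b-5p on chromosome 11 was 0.111 over the withaferin A libraries (1 and 9 counts, exact 95% limits 0.00253 to 0.802). In the untreated libraries it was 8.67, 11.01 and 10.3. MIR125B2 on chromosome 21 gives the same mature strand, so the miR-125b-5p counts cannot be credited to MIR100HG alone. By withaferin A library the counts were 0 and 1, 1 and 2, and 0 and 6. The exact 95% limits of replicates 1 and 2 (up to 39 and 9.60) included the lowest untreated ratio. Those of replicate 3 (up to 0.849) did not. Within the 4 names, miR-100-5p made up 1 of 24 counts after withaferin A and 79.4% ± 1.70 of untreated counts (SD, n = 3). miR-125a-5p made up 14 of the 24 and 8.56% ± 1.21 of untreated counts. Together the 4 names, with 1 copy of miR-125b-5p, took 2.06% ± 0.516 of counts after withaferin A and 4.98% ± 0.463 in untreated cells.

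On chromosome 21 miR-99a-5p had 0 counts beside 97 of let-7c-5p after withaferin A. This allows up to 3.09% of the pair by the 3 counts of the floor, and 3.73% by the exact 95% limits. In the untreated libraries miR-99a-5p was 15.6% to 24.0% of the pair. let-7c-5p itself had a higher share, and the ratio alone shows no fall of miR-99a-5p. miR-125b-5p at the chromosome 21 copy stood at 0.0928 per let-7c-5p count after withaferin A (exact 95% limits 0.0412 to 0.184), against 0.379 to 0.592 in untreated libraries, although withaferin A replicate 3 reached 0.261.

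On chromosome 19 both neighbours had higher shares after withaferin A. The ratio of miR-125a-5p to let-7e-5p was 0.750, 0.714 and 0.750 in the withaferin A libraries and 1.22, 1.59 and 1.28 in the untreated libraries. The groups did not overlap, but the exact 95% limits of the summed withaferin A ratio, 0.342 to 1.55, included the summed untreated ratio of 1.37. Between the miR-125 members, miR-125a-5p had 1.56 counts per miR-125b-5p count after withaferin A (exact 95% limits 0.627 to 4.07) and 1.09 in untreated cells. The withaferin A libraries ran from 0.5 to 6, and a difference was not detectable at this depth.

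**Figure D2:**
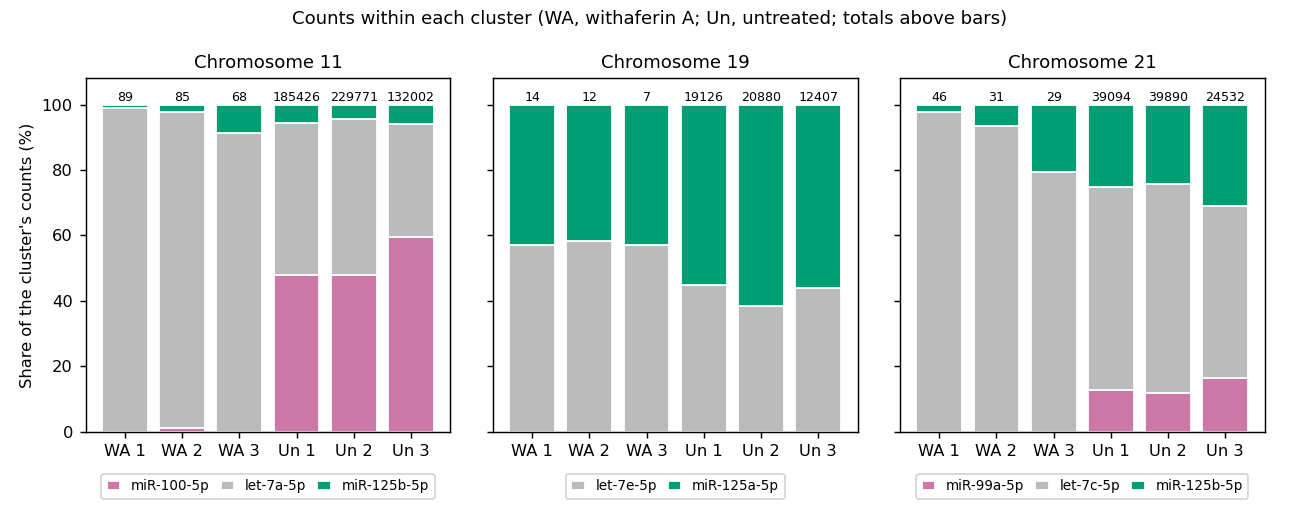
Share of each cluster's counts (percent) taken by its miR-99/100, let-7 and miR-125 loci in every library, with withaferin A libraries left of untreated ones and the cluster's total count above each bar. In the chromosome 11 cluster miR-100-5p takes a large share of every untreated library and is present in a single withaferin A library, while on chromosome 19 miR-125a-5p and let-7e-5p both keep a sizeable share.

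The miRNAs with the most similar shares were found by the distance between square roots of percent shares over the 6 libraries. The 5 loci themselves were left out of the search. This distance reflects the level of the shares, so near loci can differ in direction. The loci nearest to miR-100-5p were miR-148a-3p and miR-148a-5p, from 1 hairpin, and miR-26a-5p on chromosome 12, with distances of 0.608, 0.624 and 1.03. Their withaferin A counts were 0, 0 and 5, and their untreated shares 3.36%, 3.29% and 2.41%. The nearest to miR-125a-5p was let-7e-5p (0.353), followed by miR-16-5p at its copies on chromosomes 3 and 13 (0.592 and 0.680). For miR-125b-5p on chromosome 11 the nearest were miR-16-5p on chromosome 13 (0.908) and miR-92a-1-5p and miR-92a-2-5p (0.944 each), and miR-125a-5p itself lay at 0.905. By mean share miR-16-5p on chromosome 13 was higher after withaferin A (1.53% against 0.242% untreated), like miR-125b-5p (0.823% against 0.397%). miR-92a-1-5p and miR-92a-2-5p were each lower (0.570% against 0.999%). miR-99a-5p was left out because it lies under the floor.

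The miR-10 genes, which are related to miR-99/100 by sequence, could not be followed. miR-10a-5p and miR-10b-5p had 0 counts after withaferin A and 0.0112% and 0.000505% of untreated counts, so fewer than 1 count was expected for either.

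The authors' deposited normalized values, a score that multiplies each library's counts by 1 factor, give another view of the same counts. In that score 1 count is worth 698 to 780 units in withaferin A libraries and 0.451 to 0.619 units in untreated libraries. miR-100-5p scored 0, 729 and 0 after withaferin A, against 39984, 50942 and 48563 in untreated cells. miR-125a-5p scored 4188, 3645 and 2340 after withaferin A, against 4745, 5930 and 4309, so every withaferin A library was lower, where every share of counts was higher. miR-125b-5p on chromosome 11 scored 698, 1458 and 4680 after withaferin A, and 4613 to 4730 in untreated cells. The direction at miR-125a-5p thus differs between the score and the share of counts, and miR-100-5p is lower on both.

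**Figure D3:**
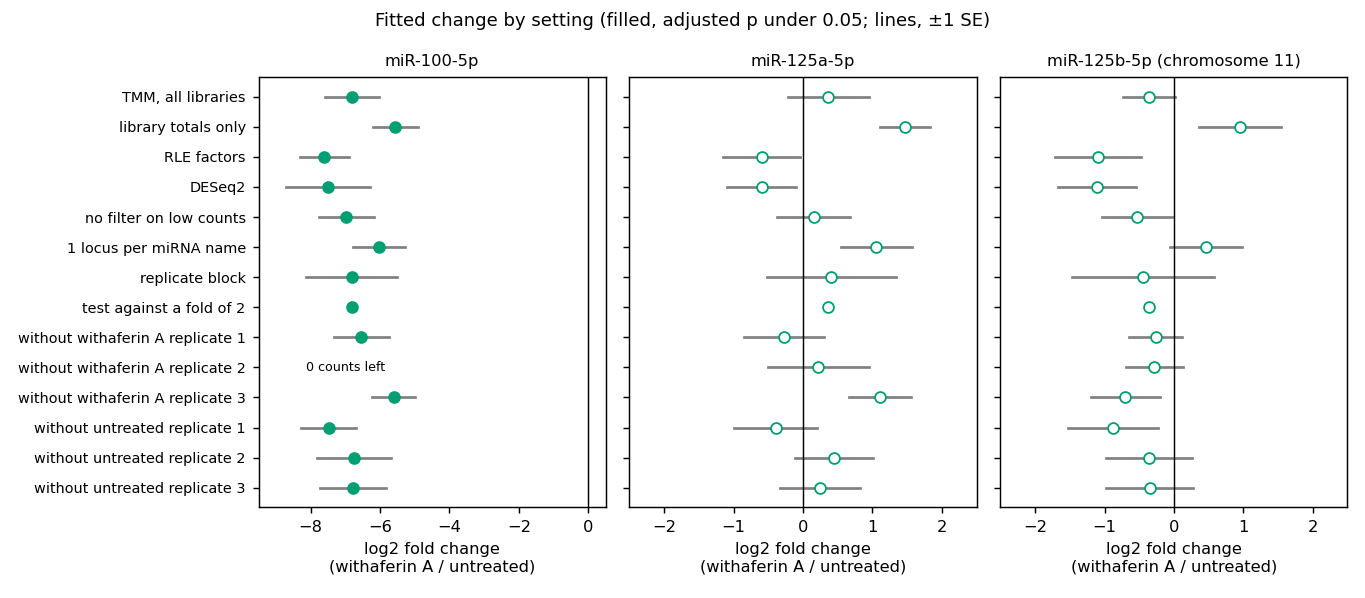
Fitted log2 fold change (withaferin A over untreated) of miR-100-5p, miR-125a-5p and miR-125b-5p on chromosome 11 under each setting, with lines of ±1 SE and filled points where the adjusted p was under 0.05. miR-100-5p stays below 0 and called throughout (no point is drawn without withaferin A replicate 2, where 0 counts remain), while miR-125a-5p and miR-125b-5p cross 0 between settings and are called in none.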

How the data were processed

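Per the labels, total RNA of MCF10A cells gave 3 small RNA libraries per group, each a column of the deposited tables. Columns were assigned to groups by the sample names in each record. The authors deposited whole-number counts per locus, and a second table with a normalized score, rounded to whole numbers, for 660 loci. The build was GRCh38.p7 and the tools named are cutadapt, Trim Galore and edgeR, per the submitters' processing notes, while the aligner, the counting rule and any use of molecular identifiers are not given in the sources used here. The score was used only for description.

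The test on counts was edgeR 4.0.16 under R 4.3.3 (filterByExpr, minimum count 10, TMM, adjusted p under 0.05 over 303 loci), and with DESeq2 1.42.0 as an alternative. The edgeR fit was also run on simulated counts, with library totals in place of TMM, at the deposited depths and with all libraries at the mean untreated total. Conditions on recovery and false calls were set only for the equal depth, so this does not vouch for TMM calls at the withaferin A depth. The SE is the absolute log2 fold change divided by the square root of F. TMM factors were 0.767, 1.21 and 3.32 in the withaferin A libraries and 0.668 to 0.707 in the untreated libraries. Ratios of shares divide the pooled withaferin A share by the mean untreated share, with exact Clopper-Pearson 95% limits (scipy 1.17.1). Chi-square per degree of freedom between replicates was 1.32 to 1.70 in withaferin A and 44.9 to 138.7 in untreated pairs. It grows with depth for the same relative difference between libraries, so it cannot compare the groups. No columns were identical, and all were kept. Named loci were the members, their let-7 partners, miR-10a and miR-10b, and the 3 nearest loci of each member above the floor. miR-205-5p and miR-21-5p were added after their values were seen. The members and lists were chosen with earlier results of these data known.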

Additional observations from a re-analysis of the deposited data

How the results depend on the processing

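Of the 5 loci, 2 were called with TMM on all libraries, miR-100-5p and miR-99a-5p. The count was 1, miR-100-5p, with library totals, with 1 locus per miRNA name and with a replicate block, and 1 to 2 when single libraries were left out (1 without withaferin A replicate 3). miR-99a-5p was the call lost each time (edgeR adjusted p = 0.0750 to 0.203). miR-100-5p was called under all 13 alternatives. miR-125a-5p turned below 0 with RLE factors (−0.59), in DESeq2 (−0.60), without withaferin A replicate 1 (−0.27) and without untreated replicate 1 (−0.40), in a range of −0.40 to 1.11 over the fits without 1 library. miR-125b-5p turned above 0 with library totals (0.95 at chromosome 11, 0.99 at chromosome 21) and with 1 locus per name (0.46). None of these passed the test, and the cause was not tested. Over the 42 tested loci counted in both groups, the median log2 fold change was −1.79 with TMM and −0.53 with library totals, a shift of 1.26, and RLE shifted it by −0.81. Deviations of same-numbered libraries correlated at −0.22 to 0.03 over 14 loci, and those of other pairs at −0.41 to 0.64. At 340 to 430 counts in the withaferin A libraries, this cannot tell whether the numbers pair them. Leave-out fits kept the 303 loci. Depth sets 1 limit: with 1188 summed withaferin A counts, a fall from an untreated share under 0.253% cannot be followed.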
